A study of Homo sapiens with 18 samples.

Results

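The genes described here are the 8 H3K4 methyltransferases KMT2A, KMT2B, KMT2C, KMT2D, KMT2E, SETD1A, SETD1B and SETD7. They were taken by gene symbol: 7 of the 8 had a row among the 23500 genes of the RNA-seq table, no row mapped to SETD1B, and all 8 could be placed on the genome for the ChIP-seq peaks. RNA-seq was performed in ZR751shLucif and ZR751shMLL3 cells, and ChIP-seq in the same cell lines with antibodies to H3K4me1, ERα and SP1, with 2 biological replicates per cell line and assay. ZR751 is an estrogen receptor positive breast cancer cell line. Both groups had been transduced with lentivirus and sorted for GFP; ZR751shMLL3 carries a hairpin against MLL3 (the protein of KMT2C), and ZR751shLucif, the control, a hairpin against luciferase. Each cell line is 1 stably transduced population, and the ChIP replicates came from a single experimental repetition, so the spread between replicates does not include that between transductions.

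Methylation of lysine 4 of histone H3 marks active regulatory DNA, with monomethylation (H3K4me1) typical of enhancers and trimethylation typical of promoters. KMT2C (MLL3) and KMT2D (MLL4) are the catalytic subunits of alternative complexes that place H3K4me1 at enhancers, KMT2A (MLL1) and KMT2B (MLL2) act at promoters of selected genes, and SETD1A and SETD1B carry out much of the bulk trimethylation. These enzymes work on a shared core of WDR5, RBBP5, ASH2L and DPY30. KMT2E (MLL5) resembles the family in sequence but has little or no methyltransferase activity of its own, and SETD7 is a monomethyltransferase outside these complexes that also modifies other proteins.

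The hairpin is shown because it decides which member was targeted. In the 57-base oligo below, capitals mark the sense and antisense arms, and lower case the cloning ends and the loop.
MLL3 hairpin oligo: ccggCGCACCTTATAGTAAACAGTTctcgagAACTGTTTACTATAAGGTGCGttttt
The 21-base sense arm matched the KMT2C transcript in full at bases 14458 to 14478, in coding sequence of exon 55 of 59. On the genome (hg19) the target lies at chr7:151841880-151841900 on the minus strand. Among all GENCODE transcripts, KMT2C was the 1 gene with an exact match. The best ungapped site in KMT2D, the closest relative, matched at 15 of the 21 bases, and those in the other members at 12 to 14. Capitals mark the bases that match the arm in these best sites.
KMT2C: CGCACCTTATAGTAAACAGTT
KMT2D: CaCcCCcTAcAGcAAgCAGTT
SETD7: CGCACtTTATgGgAAAtttaT
KMT2A: tGgACtTTgaAGgAAtCAGcT

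KMT2C, the targeted gene, had an FPKM (fragments scaled to transcript length and to the fragments mapped in the library) of 2.34 and 6.77 in the shLucif libraries and of 1.07 and 2.69 in the shMLL3 libraries. The higher shMLL3 library was above the lower shLucif library, so the cell lines overlapped. The mean was lower, at 1.88 ± 1.1 against 4.56 ± 3.13 FPKM (SD, n = 2 each). On the log2(FPKM + 0.5) scale the change was -1.02 with a standard error of 0.54, and limma's adjusted p over the 11134 genes tested was 0.629. In FPKM, the replicates of a cell line differed by 2.89 times in shLucif and by 2.52 times in shMLL3. The change between the cell lines was 0.491-fold on the FPKM + 0.5 scale, where such ratios are smaller, so the sizes are not directly comparable. The log2 change was -0.35 without shLucif replicate 2, -0.51 without shMLL3 replicate 1, -1.54 without shMLL3 replicate 2 and -1.70 without shLucif replicate 1. Of the KMT2C transcript, 12.7% has a copy of 97.7% identity in BAGE2, and how reads of that stretch were assigned is not given in the sources used here.

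No member passed the test: limma called 0 of the 7 members at an adjusted p of 0.05, and the background was 0.00898% of all genes tested, called in either direction (1 gene, which was lower; 409 genes were higher and 480 lower at an unadjusted p under 0.05). KMT2B stood at 6.80 and 8.56 FPKM in shLucif and at 11.6 and 10.8 in shMLL3, and was the 1 member higher in both shMLL3 libraries than in both shLucif libraries. Its log2 fold change was 0.53 with a standard error of 0.27 (limma, adjusted p = 0.629). With each library's trend on transcript GC content removed, the log2 fold change of KMT2B was 0.25, and with length removed as well 0.11; the transcript is 63.5% GC, and across genes the log2 fold change correlated with GC content at a Spearman's rho of 0.538, as a description over genes of the same 4 libraries.

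SETD7 stood at 33.9 and 31.7 FPKM in shLucif and at 18.8 and 30.0 in shMLL3, and was the 1 member lower in both shMLL3 libraries. Its log2 fold change was -0.46 with a standard error of 0.32 (limma, adjusted p = 0.671). It was -0.13 without shMLL3 replicate 1, -0.79 without shMLL3 replicate 2 and -0.17 with the GC trend removed. Among all genes tested, 17.6% were higher in both shMLL3 libraries and 25.3% lower, and 42.9% did not overlap in 1 direction or the other. The 1 member higher, 1 lower and 5 overlapping are not more than this background.

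KMT2D, the alternative catalytic subunit to KMT2C, stood at 2.24 and 8.02 FPKM in shLucif and at 6.74 and 9.99 in shMLL3. The cell lines overlapped, and the low value was that of shLucif replicate 1. The log2 fold change was 0.85 with a standard error of 0.55 (limma, adjusted p = 0.656). It was 0.03 without shLucif replicate 1 and 1.67 without shLucif replicate 2, where limma's adjusted p was 0.0265, so the size of the difference rested on which control library was kept. In that last fit 3.17% of all genes tested were called higher and 8.23% lower, and with 1 control library the spread came from the shMLL3 libraries alone. With all libraries, the log2 fold change of KMT2D was 0.66 with the GC trend removed and 0.41 with length removed as well.

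KMT2A stood at 1.59 and 4.50 FPKM in shLucif and at 2.88 and 5.14 in shMLL3, and its log2 fold change was 0.43 with a standard error of 0.49 (adjusted p = 0.776, limma). KMT2E stood at 4.33 and 6.49 FPKM in shLucif and at 4.89 and 6.38 in shMLL3, and its log2 fold change was 0.07 (adjusted p = 0.95, limma). SETD1A stood at 8.20 and 6.23 FPKM in shLucif and at 8.08 and 7.22 in shMLL3, and its log2 fold change was 0.09 (adjusted p = 0.927, limma). All 3 overlapped between the cell lines. The 95% intervals of the log2 fold change ran from -0.69 to 0.83 for KMT2E and from -0.59 to 0.77 for SETD1A. Changes within these intervals were not excluded, and in simulated libraries changes of 1 on the log2 scale were not called either. The median log2 fold change of the 7 members was 0.09, against -0.10 over all genes tested.

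**Figure D1:**
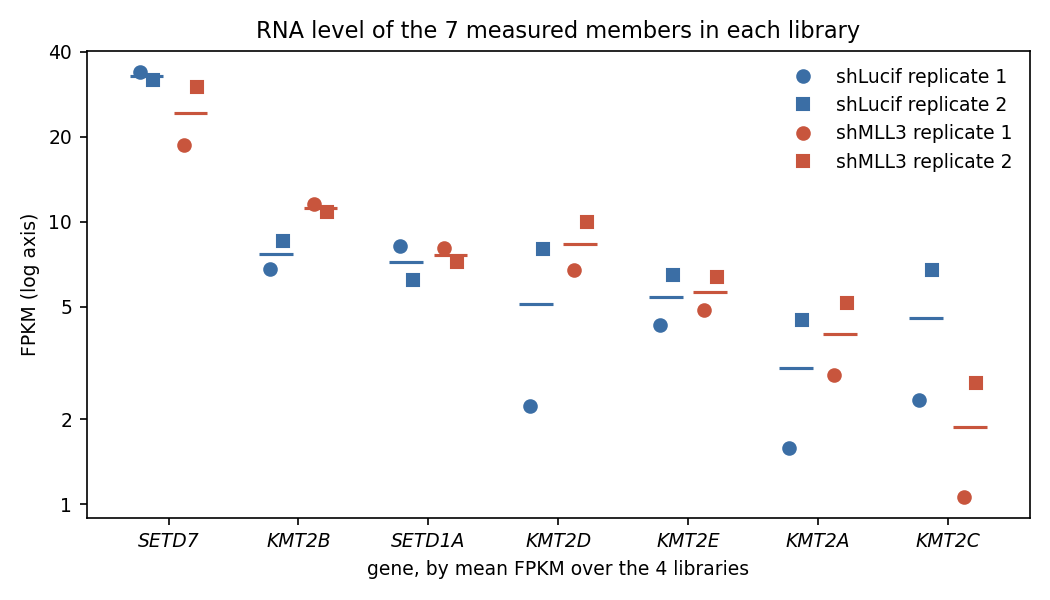
FPKM of the 7 measured members on a log axis, in each of the 2 shLucif (blue) and 2 shMLL3 (red) libraries, with a line at the mean of each cell line. KMT2B is higher and SETD7 lower in both shMLL3 libraries, and the other 5 genes overlap between the cell lines.

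**Figure D2:**
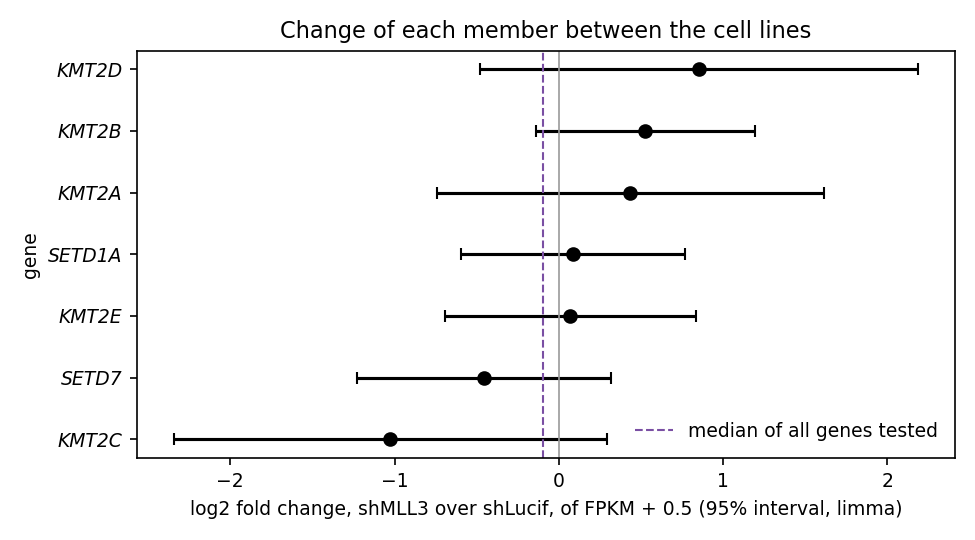
Log2 fold change of each measured member, shMLL3 over shLucif, of FPKM + 0.5, with limma's 95% interval over 2 libraries per cell line. All 7 intervals include 0, and the dashed line marks the median of all genes tested, -0.10.

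In shLucif, the members with the longest transcripts were the least alike between replicates. For KMT2A, KMT2C and KMT2D, with transcripts of 16600, 16860 and 20635 bases, shLucif replicate 2 was 2.84, 2.89 and 3.58 times shLucif replicate 1, whereas for SETD1A, with the shortest transcript of the family at 5991 bases, replicate 1 was 1.32 times replicate 2. In shMLL3, replicate 2 was 1.79, 2.52 and 1.48 times replicate 1 for KMT2A, KMT2C and KMT2D, and 1.60 times for SETD7, whose transcript is shorter at 6808 bases. Over the 847 tested genes with transcripts longer than 8 kb, the median log2 difference of shLucif replicate 1 from replicate 2 was -0.28, against 0.24 over all tested genes. Between shMLL3 replicates 1 and 2 it was -0.31 for these long transcripts, against -0.06. Across tested genes, shLucif replicate 1 correlated at 0.900 to 0.907 with the other libraries, and those at 0.947 to 0.969 with one another. With each library's trends on GC content and length removed, the log2 fold change was 0.39 for KMT2A, -1.02 for KMT2C and 0.41 for KMT2D, against 0.61, -0.80 and 0.66 with the GC trend alone removed.

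Since KMT2C and KMT2D serve the same kind of complex, KMT2C was set against KMT2D within each library, where a shift shared by both transcripts drops out. The ratio of KMT2C to KMT2D FPKM was 1.05 and 0.845 in shLucif and 0.158 and 0.269 in shMLL3. The cell lines did not overlap, and the ratio in shMLL3 was 0.272 of that in shLucif on the FPKM + 0.5 scale. The exact permutation test gave p = 0.333 (two-sided), the smallest p that 2 libraries against 2 can give. Leaving out each library in turn, the log2 difference of the ratio ran from -2.12 to -1.63, around -1.88 with all 4. The KMT2C transcript is 45.0% GC and that of KMT2D 59.8%, so a shift tied to GC content is not shared by both. With the GC trend removed, the log2 fold changes were -0.80 for KMT2C and 0.66 for KMT2D, and the ratio was not tested on that scale.

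The same ratio was then taken to each other member, a step chosen after the values had been seen. KMT2C to KMT2A was 1.48 and 1.5 in shLucif and 0.371 and 0.523 in shMLL3. The ratio to KMT2B was 0.345 and 0.791 in shLucif and 0.0919 and 0.248 in shMLL3, and that to KMT2E was 0.542 and 1.04 in shLucif and 0.218 and 0.421 in shMLL3. For these, as for KMT2D, both shMLL3 libraries were below both shLucif libraries, which held for 4 of the 6 ratios. The ratios to SETD1A and SETD7 overlapped. Among all other tested genes, 28.2% gave a ratio to KMT2C with the same separation. As a share of the summed FPKM of the 7 members, KMT2C made up 3.94% and 9.37% in shLucif and 1.97% and 3.72% in shMLL3.

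**Figure D3:**
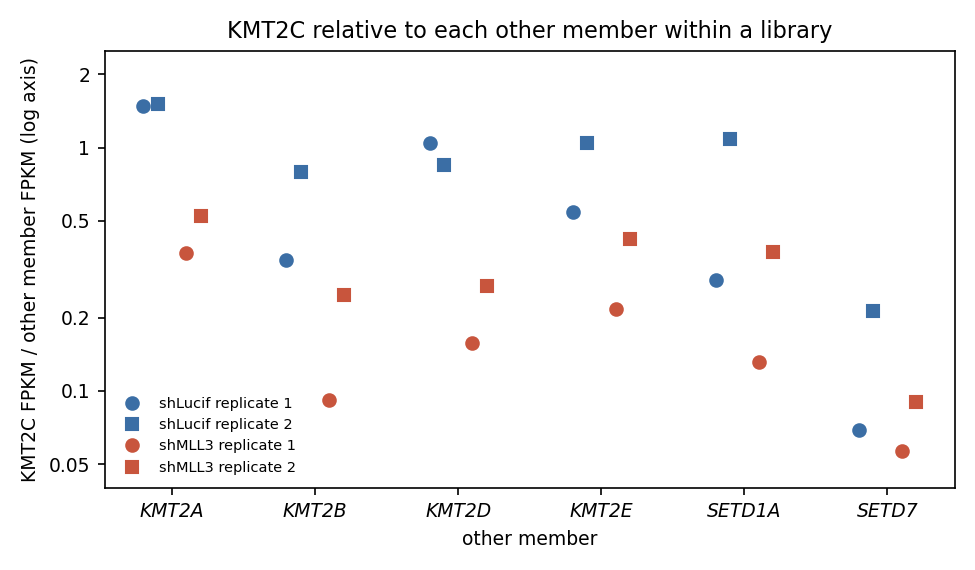
FPKM of KMT2C divided by that of each other measured member, within each of the 4 libraries, on a log axis. The ratios to KMT2A, KMT2B, KMT2D and KMT2E are lower in both shMLL3 libraries (red) than in both shLucif libraries (blue), and those to SETD1A and SETD7 overlap.

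By level per transcript length, SETD7 came highest with a mean of 28.6 FPKM over the 4 libraries, followed by KMT2B at 9.45, SETD1A at 7.43, KMT2D at 6.75, KMT2E at 5.52, KMT2A at 3.53 and KMT2C at 3.22 FPKM. This order pools both cell lines: in shLucif alone KMT2C, at a mean of 4.56 FPKM, was above KMT2A at 3.05 in both libraries, and KMT2E at 5.41 was above KMT2D at 5.13 on average. SETD7 was above KMT2B in every library. From KMT2B down, each neighbour in this order overlapped the next in shLucif, and in shMLL3 the neighbours SETD1A and KMT2D overlapped, as did KMT2E and KMT2A. The members' means lay between the 12.2 and 71.9 percentiles of all tested genes. In its profile over the 4 libraries, centred on the gene mean on the log2 scale, KMT2C was closest to NUPR1 of the 11134 tested genes, with a root mean square difference of 0.21, and CHML (0.27), ANKRD36BP1 (0.28) and SERINC5 (0.29) were also among the closest. Of the members SETD7 was nearest to KMT2C, at 0.60.

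The partners of these enzymes gave no calls. Of 38 tested genes that form the complexes, write or erase H3K4 methylation or write other histone marks, limma called 0, while 14 were lower and 1 was higher in both shMLL3 libraries, against 25.3% and 17.6% of all genes. Their median log2 fold change was -0.18. In the shared core, ASH2L stood at 63.7 and 63.3 FPKM in shLucif and at 50.4 and 49.1 in shMLL3, with a log2 fold change of -0.35, and RBBP5 had -0.26, WDR5 -0.18 and DPY30 -0.09. Of the subunits particular to the KMT2C and KMT2D complexes, the H3K27 demethylase KDM6A had -0.22, PAXIP1 -0.22 and the coactivator NCOA6 -0.14. Of the partners of KMT2A and KMT2B, the chromatin reader PSIP1 had -0.60, HCFC2 -0.22, MEN1 -0.18 and HCFC1, shared with the SETD1 complexes, 0.33. In the SETD1 complexes, BOD1 had -0.35, CXXC1 -0.16, WDR82 0.01 and BOD1L1 0.22.

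Among the erasers of H3K4 methylation, KDM5C, a demethylase of trimethylated H3K4, was the 1 gene higher in both shMLL3 libraries, at 20.6 and 24.7 FPKM in shLucif and 34.6 and 30.3 in shMLL3, and its log2 fold change was 0.51 (adjusted p = 0.629, limma). KDM5B and KDM1B, which removes mono- and dimethylation, were lower in both shMLL3 libraries. Of all genes tested, 25.3% were lower and 17.6% higher in this way. KDM5B stood at 48.6 and 46.9 FPKM in shLucif and at 35.7 and 42.1 in shMLL3 (log2 fold change -0.30), and KDM1B at 5.57 and 4.78 in shLucif and at 3.82 and 2.91 in shMLL3 (-0.56). KDM5A had 0.25. Of the further methyltransferases tied to H3K4, SETMAR had -0.46, SMYD2 -0.24 and SMYD3 0.16, and SMYD1 and PRDM9 stayed at 0.0271 FPKM or less and were not tested. Of 15 writers of other marks, 7 were lower and 0 higher in both shMLL3 libraries, beside 25.3% and 17.6% of all genes. EZH2, the H3K27 methyltransferase, stood at 17.9 and 21.8 FPKM in shLucif and at 12.8 and 10.8 in shMLL3, and its log2 fold change was -0.72 (adjusted p = 0.605, limma). SETDB1 had -0.53, KMT5C 0.34 and EHMT2 0.07.

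The cells were checked by markers. All 7 luminal markers were above 1 FPKM in at least 1 library, with a summed level of 4677 to 12288 FPKM in shLucif and 9130 to 10627 in shMLL3. Most of this sum is keratin, from KRT8, KRT18 and KRT19. Of the 7, FOXA1 and EPCAM were lower in both shMLL3 libraries and none was higher, beside 25.3% lower and 17.6% higher among all genes tested. FOXA1 stood at 173 and 102 FPKM in shLucif and at 76.8 and 93.7 in shMLL3, a log2 difference of -0.65, and EPCAM had -0.31, KRT18 0.60 and KRT8 0.53. Limma called 0 of the 7. The summed level of 3 basal markers was at most 0.194 FPKM and that of 2 endothelial markers at most 0.282. Of the fibroblast and immune markers, COL1A1 and CD68 alone reached 1 FPKM, while COL1A2, DCN, PTPRC and CD3E were at or near 0.

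The ChIP-seq peaks were read within each member gene and 50 kb on either side. The lists are limited by rank and each has its own signal scale, so peaks are given by rank, with rank 1 the strongest of a library. A peak was called reproducible in a cell line when it was matched in both replicates at a set irreproducible discovery rate (IDR). The rates were those the study lists for true replicates, 0.1 for H3K4me1, 0.7 for ERα and 0.5 for SP1. For pooled replicates the study lists stricter thresholds for each antibody, and for replicates split in themselves a looser one for H3K4me1. Its figure legends give stricter ones for ERα and SP1. At an IDR of 0.05 the SP1 counts in the member loci, 2 and 9, were 0 in shLucif and 3 in shMLL3, and ERα stayed at 0. The counts also depend on how the IDR mixture was fitted.

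For H3K4me1, 16 reproducible peaks lay in the member loci in shLucif, of 31582 in the genome (0.0507%), and 2 in shMLL3, of 8211 (0.0244%). Some overlap one another, and they form 13 separate regions in shLucif and 2 in shMLL3. Those in shLucif lay at KMT2A, KMT2C, KMT2E and SETD7, 4 of 8 members, where 44.8% of all genes with a position had such a peak. These members had the longest gene spans, from 90377 to 301723 bases, against 20907 to 41820 in the rest. The share over all genes was not matched for span. The peaks in shMLL3 lay at KMT2A and SETD7, 2 of 8, where 21% of all genes had one. With 1 value per cell line and antibody these counts have no test. Over the 7 IDR fits tried they ran from 0 to 119 in shLucif and from 0 to 63 in shMLL3, the highest from a fit that kept every matched pair. Another fit gave 0 against 1, so the order of the cell lines depended on the fit. Among the 50000 top-ranked peaks of each library, which do not depend on the IDR fit, 23 and 33 lay in the member loci in shLucif and 26 and 23 in shMLL3. The libraries overlapped, and the share of 0.056% in shLucif differed from 0.049% in shMLL3 by less than the spread (exact permutation test, two-sided, p = 1, adjusted over 3 antibodies p = 1).

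KMT2C itself carried 4 of these H3K4me1 peaks in shLucif and 0 in shMLL3. One lay 24.2 kb before the start site, at chr7:152156797-152157830, with rank 31079 in shLucif replicate 1 and 21418 in replicate 2. The others lay in the gene outside exons, 94.0 kb after the start site (chr7:152038522-152039632) and, as 2 overlapping peaks, 73.2 and 73.5 kb after it. Among the 50000 top-ranked, KMT2C had 4 and 6 peaks in shLucif and 6 and 3 in shMLL3, which overlap, and those of shMLL3 were not matched between the replicates. At an FDR of 0.01 in both replicates it had 6 in shLucif and 1 in shMLL3.

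All 4 of the KMT2E peaks in shLucif lay inside the annotated gene but before its main start site, from 13.8 to 68.3 kb away, and 3 of them also lay in the noncoding gene LINC01004. At SETD7 the 6 peaks in shLucif lay between 1.79 and 104 kb after the start site. The strongest lay 104 kb past the start site, outside the gene, 1.87 kb before the start of RAB33B, a small GTPase, at chr4:140372850-140373929, with ranks 8262 and 23313. It was the 1 reproducible region of the member loci that overlapped between the cell lines, and its shMLL3 ranks were 33193 and 9733. The 151 bases around its summit (chr4:140373331-140373481, plus strand) are shown since this region kept a peak in both cell lines, with no GC box and no estrogen response element to put in capitals.
H3K4me1 peak near RAB33B: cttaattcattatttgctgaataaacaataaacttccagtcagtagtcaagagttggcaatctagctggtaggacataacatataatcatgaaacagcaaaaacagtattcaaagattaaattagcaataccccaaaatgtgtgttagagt
The other H3K4me1 peak of shMLL3 lay in an exon of KMT2A, 89.6 kb after the start site, at chr11:118396298-118397257, with ranks 5089 and 2106, and 1.34 kb from the start of TTC36. In shLucif the KMT2A peaks lay elsewhere, as 2 overlapping peaks 39.3 and 39.4 kb before its start site, within UBE4A. A peak that overlaps them was matched between the shMLL3 replicates at ranks 26013 and 29638 and had an IDR of 0.135, just outside the threshold.

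For ERα, 0 reproducible peaks lay in the member loci in either cell line, of 1199 in the genome in shLucif and 1222 in shMLL3. Such a peak was present at 5.61% of all genes with a position in shLucif and at 5.15% in shMLL3, so 0 of 8 is near the background. Among the 50000 top-ranked ERα peaks of each library, 24 and 16 lay in the loci in shLucif and 11 and 18 in shMLL3, with overlap between the cell lines (exact permutation test, two-sided, p = 0.667, adjusted p = 1). KMT2D had 0 in all 4 libraries. The highest-ranked was a KMT2C peak outside exons, 24842 bases after the start site, rank 577 in shLucif replicate 1, and in shMLL3 replicate 2 a KMT2C peak of rank 1058 lay 24407 bases after it.

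For SP1, a zinc finger factor that binds GC boxes at many promoters, 2 reproducible peaks lay in the member loci in shLucif, of 522 in the genome, and 9 in shMLL3, of 1909. These are 0.383% and 0.471% of the reproducible peaks. Over the 7 fits the number was 2 in shLucif and 8 to 16 in shMLL3. The 16 came from a fit that kept every matched pair of shMLL3, and the other fits gave 8 or 9. The reproducible peaks in shLucif lay at KMT2C and SETD1B, 2 of 8 members, where 5.05% of all genes had such a peak. Those in shMLL3 lay at KMT2B, SETD1A and SETD1B, 3 of 8, where 18.2% of all genes had one. Among the 50000 top-ranked peaks of each library, 24 and 26 lay in the loci in shLucif and 32 and 52 in shMLL3. Both shMLL3 libraries were above both shLucif libraries, at a mean share of 0.084% against 0.05%, and the exact permutation test gave p = 0.333 (two-sided, adjusted p = 1), the smallest p possible with 2 against 2. The SP1 list of shMLL3 replicate 2 stood apart at start sites: 36.2% of all genes had a top-ranked peak within 1 kb of the start site there, against 5.69% to 7.06% in the other 3 SP1 libraries, and without this library the difference in share was 0.014 percentage points, against 0.034 with all libraries and 0.054 without shMLL3 replicate 1.

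Within 1 kb of the start site, 3 and 2 of the 8 members had a listed SP1 peak in shLucif and 1 and 7 in shMLL3. In the same libraries 21.9% and 24.2% of all genes had one in shLucif, and 18.6% and 54.6% in shMLL3. Counting the 50000 top-ranked peaks alone, 1 and 2 members had one in shLucif (5.69% and 6.39% of all genes) and 1 and 7 in shMLL3 (7.06% and 36.2%). In shMLL3 replicate 2, every member but KMT2C had such a peak, at ranks from 175 at SETD1A to 16130 at SETD1B.

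SETD1A was the 1 member with an SP1 peak listed within 1 kb of its start site in all 4 libraries, as 3.38% of all genes had. The best such peak had rank 489 in shLucif replicate 1, 1659 in shLucif replicate 2, 12588 in shMLL3 replicate 1 and 175 in shMLL3 replicate 2. The FDRs of these peaks, in the same order, were 0.029, 0.080, 0.00036 and 0.00052. The ranks of the cell lines overlap. The summits of these best peaks lay at 13, -315, -470 and -93 bases from the start site. Further peaks were listed there, with summits at -503 in shLucif replicate 1, -54 in shMLL3 replicate 1 and 110 in shMLL3 replicate 2. The peak at -54 overlapped the peak at 13 of shLucif replicate 1 and the peak at -93 of shMLL3 replicate 2. In shLucif a pair of them was matched at ranks 42029 and 1659 with an IDR of 0.54, just outside the threshold of 0.5. In shMLL3, 2 overlapping reproducible peaks covered chr16:30968465-30969231 and chr16:30968881-30969434. The 250 bases before the SETD1A start site (chr16:30968825-30969074, plus strand, hg19) hold 4 GC boxes (GGGCGG or CCGCCC on either strand, overlaps counted), in capitals.
SETD1A promoter: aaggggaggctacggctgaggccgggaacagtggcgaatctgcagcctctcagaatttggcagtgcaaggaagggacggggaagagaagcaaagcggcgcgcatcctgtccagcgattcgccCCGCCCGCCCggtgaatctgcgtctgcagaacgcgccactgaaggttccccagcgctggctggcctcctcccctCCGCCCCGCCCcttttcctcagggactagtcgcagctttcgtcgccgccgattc

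KMT2C is shown beside it because it had the most GC boxes of the members and no SP1 peak listed within 1 kb of its start site. Its 250 bases before the start site (chr7:152133089-152133338, minus strand) hold 15 GC boxes, and 12 of 22339 promoters, its own included, held as many or more. No library listed an SP1 peak within 1 kb of its start site, as was so for 30.5% of all genes. The GC content of this stretch is 92%, and how well reads from it were sequenced and mapped was not tested.
KMT2C promoter: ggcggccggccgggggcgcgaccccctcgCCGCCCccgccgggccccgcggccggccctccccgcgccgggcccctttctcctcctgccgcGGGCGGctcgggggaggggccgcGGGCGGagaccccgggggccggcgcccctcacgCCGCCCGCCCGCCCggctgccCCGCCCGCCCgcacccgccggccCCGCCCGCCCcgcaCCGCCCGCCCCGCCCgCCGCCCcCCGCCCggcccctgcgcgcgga
Of the 8 members, 6 had a GC box in this window, as did 54.0% of 22339 promoters, and SETD1B and SETD7 had none. The numbers were 4 in KMT2B, 3 in KMT2A, 2 in KMT2D and 1 in KMT2E. The full palindromic estrogen response element was in 0 of the members and in 0.0313% of promoters.

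The 4 reproducible SP1 peaks counted at KMT2B in shMLL3 all lay outside the gene. The strongest lay 15.6 kb before its start site (chr19:36193132-36193631), 2.13 kb before the start of ZBTB32, with ranks 161 and 1113. The next lay 57.4 kb after the start site at the promoter of ARHGAP33 (chr19:36265996-36266495), with ranks 1371 and 956, and the others near IGFLR1 and LIN37. The 151 bases around the summits of the stronger pair are given on the plus strand (chr19:36193258-36193408 and chr19:36266181-36266331), with GC boxes in capitals.
Peak before ZBTB32: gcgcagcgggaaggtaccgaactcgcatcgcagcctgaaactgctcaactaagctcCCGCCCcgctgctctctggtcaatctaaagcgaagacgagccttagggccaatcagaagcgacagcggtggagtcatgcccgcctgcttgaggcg
Peak at ARHGAP33: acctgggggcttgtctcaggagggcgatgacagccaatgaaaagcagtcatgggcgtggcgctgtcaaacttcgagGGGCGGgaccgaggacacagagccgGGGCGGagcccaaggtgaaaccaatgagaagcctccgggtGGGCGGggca
The remaining SP1 peaks counted at SETD1A lay at the start sites of FBXL19 and ORAI3. All 9 SP1 peaks of shMLL3 held a GC box, and 1 of the 2 of shLucif did. The share over all reproducible SP1 peaks was not computed. GC content around the summits was 53.2% to 70.1% in the shMLL3 peaks, and 40.3% and 47.3% in the shLucif peaks. The SP1 peak at KMT2C in shLucif lay in the gene outside exons, 27.6 kb after the start site (chr7:152105326-152105685), with ranks 16503 and 444 and no GC box. Neither shLucif SP1 list held a peak at an FDR of 0.01.

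**Figure D4:**
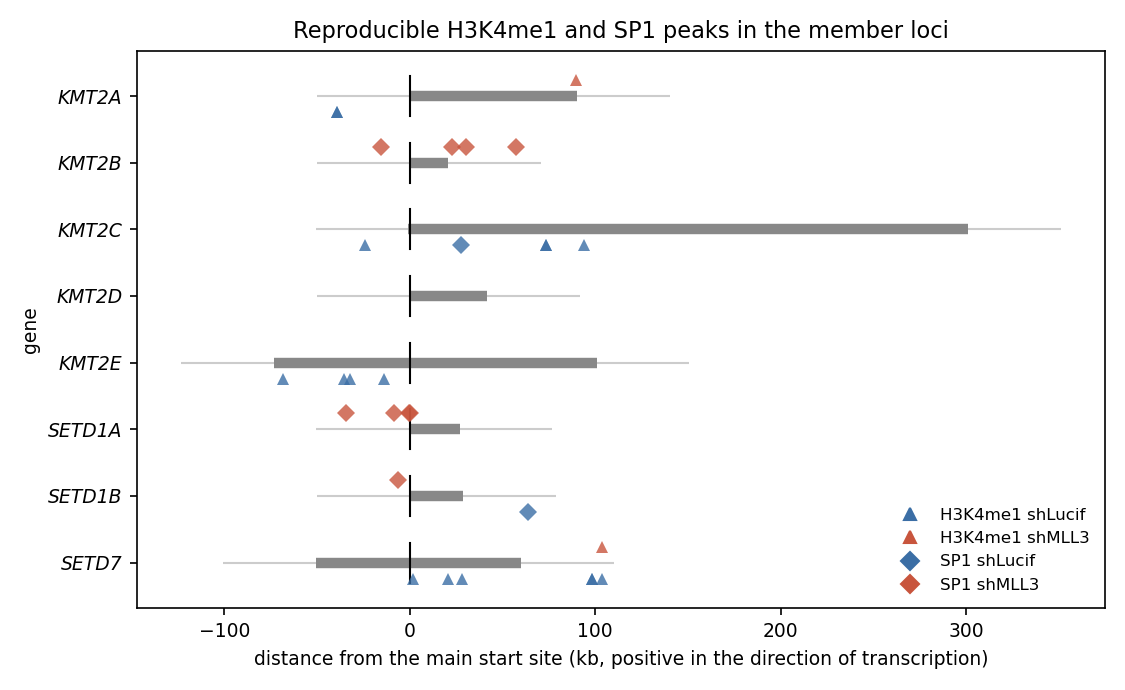
Reproducible H3K4me1 (triangles) and SP1 (diamonds) peaks in the 8 member loci by distance in kb from the main start site (black tick), with shLucif (blue) below and shMLL3 (red) above each gene. Thick bars are the genes and thin lines the 50 kb on either side. Of 16 H3K4me1 peaks in shLucif, 1 overlaps a peak of shMLL3, at SETD7, and 2 SP1 peaks of shMLL3 lie at the start site of SETD1A.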

How the data were processed

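RNA levels are FPKM that the authors deposited, made with TopHat2 2.0.13, Cufflinks 2.2.1 and Cuffnorm 2.2.1 on hg19. Peaks are the authors' deposited lists, 12 in all, each with SPP signal (never negative) and the −log10 of its FDR, after alignment with BWA 0.7.5a-r405. No counts are used, so depth per value is unknown. RefSeq rows were named through RefSeq tables (97.4% matched). Positions are from GENCODE on GRCh37, and 0 of 3365315 peaks ran past a chromosome end.

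Genes with a mean log2(FPKM + 0.5) above 1 were tested with limma 3.58.1 (R 4.3.3) and Benjamini-Hochberg adjustment. In simulated data on 11134 genes, changes of 1 on the log2 scale were recovered in 0% of 200 genes and changes of 3 in 78.5%. IDR used a Gaussian copula mixture written for this purpose. It was fitted with 7 sets of bounds and starting shares, whose counts were seen before the main set was settled: the least restrictive that gave a share near 0 for unrelated simulated lists and kept the share inside its bounds in every list. Copies of KMT2C were sought with blastn 2.17.0+. Over tested genes, same-numbered RNA libraries deviated together at a correlation of 0.0374, and the main fits did not pair them. Whether the numbers mark a pairing was not tested, and long transcripts were lower in replicate 1 in both cell lines.

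Members and gene lists were chosen with earlier results of these data known. All members are named, with the 2 tested genes of each list with the largest log2 fold change in each direction and the 5 closest to KMT2C, 1 of which is not reported here. Input libraries were not analysed here.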

Additional observations from a re-analysis of the deposited data

How the results depend on the processing

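In simulated libraries of the same number, limma recovered 0% of changes of 1 on the log2 scale. KMT2C stayed lower in all 14 RNA alternatives that kept it, from -1.70 to -0.35, and was not called in any; the filter at a mean log2 value of 3 kept KMT2B and SETD7 alone of the members. No member was called except KMT2D without shLucif replicate 2, so the number called was 0 to 1 when each library was left out. Leaving out each library, KMT2A ran from -0.20 to 1.06, KMT2E from -0.20 to 0.34 and SETD1A from -0.10 to 0.27. KMT2A and KMT2E turned lower without shLucif replicate 1, KMT2E also without shMLL3 replicate 2, at -0.11, and SETD1A without shLucif replicate 2. SETD1A turned to -0.17 with the GC trend removed, with or without the replicate block, and to -0.25 with the GC and length trends removed. The causes were not tested.

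Over all genes, 14 were called higher and 19 lower with the replicate block, 239 and 234 with 1 surrogate variable removed, and 0 lower without a filter, with the GC trend removed (also with the block) or with GC and length trends removed. Leaving out each library gave 0 to 353 higher and 1 to 916 lower, the most without shLucif replicate 2. The block changed no call of a member. With the block, the difference in the share of top-ranked peaks was the same as without it, at -0.007 percentage points for H3K4me1, -0.011 for ERα and 0.034 for SP1. The H3K4me1 difference turned to 0.02 among the 10000 top-ranked peaks, and ran from -0.017 to 0.003 when each library was left out. The SP1 difference ran from 0.014, without shMLL3 replicate 2, to 0.054. At an FDR of 0.01 the SP1 share could not be computed, since both shLucif lists hold 0 such peaks.

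Reproducible H3K4me1 peaks in the member loci, 16 in shLucif and 2 in shMLL3, became 52 and 9 at an FDR of 0.01 in both replicates, and 10 and 1 at an IDR of 0.05, with an overlap of at least 50% of the shorter peak, within 10 kb, or in the gene alone. Among the 50000 top-ranked of both replicates there were 5 in shMLL3. In the other IDR fits, added after seeing the data, they were 119 and 63 with a mean of 2 or more (a fit that kept every matched pair), 10 and 1 with the spread also limited to 1, 4 and 1 with a mean of 2.5 or more, 0 and 1 with a mean of 2 and a correlation of 0.8, and 0 and 0 with a mean of 2.5 and that correlation; a starting share of 0.5 gave 4 in shMLL3. The order of the cell lines therefore depends on the fit. Reproducible SP1 peaks in shLucif, 2, became 0 at an FDR of 0.01 or an IDR of 0.05, and 1 with the stricter overlap, within 10 kb or in the gene. Those in shMLL3, 9, became 3 at an IDR of 0.05, 2 in the gene alone and 16 with a mean of 2 or more. ERα peaks stayed at 0 in all 12 alternatives in both cell lines.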
